A study of Mus musculus with 2 samples.

Results

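Among the probes of a mouse long noncoding RNA and mRNA array, 1209 carry the accession of a cDNA or of an expressed sequence tag in their name, and their signals were measured in left and right kidney. They were chosen by name alone, as transcript probes called by 1 or 2 capital letters and a number, such as AK007918, followed by a probe suffix, and they make up 1209 of 59701 transcript probes. The groups were left kidney and right kidney of male mice, each read here as a pool of 3 kidneys on 1 array of 1 colour. Strain, age and treatment are not given in the sources used here, and neither group is labelled as treated. Each side therefore has 1 value per probe, no test between the sides could be made, and every difference below compares 2 arrays. A pool also hides the spread between mice, and in whole kidney a lower signal from fewer cells of a type cannot be told apart from less RNA per cell.

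A cDNA is a DNA copy of a cellular RNA, made by reverse transcription and cloned. An expressed sequence tag, or EST, is a short read from an end of such a clone, taken in large numbers to list which transcripts a tissue makes. ESTs that were never merged into a gene record can mark unannotated transcripts, unrecognised ends of known genes, or clones primed on unspliced RNA or genomic DNA.

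All 1209 accessions were distinct, and 0 of them had a second probe, so no accession was read more than once. Whether different accessions belong to the same transcript was not tested. Each probe was printed in 1 spot per array, and among the 1209 spots 0 were saturated and 0 carried an outlier flag on either array. No member could be given a gene name, since 0 of the 1209 accessions matched a symbol, synonym or transcript in the RefSeq gene table of GRCm38.p6. Kidney markers could for the same reason not be looked up among them. None of the accessions was shared with a custom probe of the array.

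Most of these probes were dim, and fewer of them than of the array as a whole gave a signal. On the left array 532 of 1209 (44.0%, exact 95% interval 41.2 to 46.9) were well above background, the scanner software's detection call, against 60.4% of all transcript probes. On the right array 606 (50.1%, interval 47.3 to 53.0) were, against 65.5%. Mouse lincRNA exon probes, which target long intergenic noncoding RNAs, lay between, at 50.6% on the left and 56.3% on the right. For comparison, 1200 spots of 20 negative probes met this call at a rate of 6.5% (left) and 9.58% (right). Of these 20 probes, 2 met it often. Over the other 18, a set chosen after seeing the data, the rates were 0.74% (left) and 1.11% (right). A set of 511 members (42.3%) passed on both arrays and 582 on neither. These intervals cover counting error only, and detection calls do not separate intended from unspecific binding.

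The processed signal, a background-subtracted brightness on a linear scale, had a median over the members of 24.99 (left array) and 28.2 (right array). The medians over all transcript probes were 65.5 and 67.4. The faintest transcript probe with that call had a signal of 33.2 (left) or 27.2 (right), so the median member lay below that limit on the left and just above it on the right. The 75th percentile of the members was 108 (left) and 111 (right), where that of all probes was 421 and 420. The gap narrowed among the brightest: the 99th percentile was 81605 (left) and 79670 (right) for the members, and 88026 and 84505 for all probes. Members thus spanned nearly the whole range of the array, up to 216219 on the left against 253371 for its brightest transcript probe.

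Counted by brightness, 215 members above background on the left had a signal under 100, 205 lay between 100 and 1000, 56 between 1000 and 10000, and 56 above that. On the right these counts were 282, 214, 56 and 54. A share of 4.63% of the members and 6.05% of all probes exceeded 10000 on the left. In the step from 1000 to 10000 the shares were 4.63% and 11.8%, so the intermediate range was where the members were thinnest relative to the array.

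Among the members, the kind of record behind the accession went with the share detected, most clearly between AK cDNAs and ESTs. Database prefixes were read as follows: AK for cDNAs of the Japanese database, BC for full-length cDNAs of the Mammalian Gene Collection, and the remaining prefixes for ESTs or for mRNA records submitted one by one. Of the 93 AK cDNAs, the left array had 60 above background (64.5%, interval 53.9 to 74.2) and the right array 64 (68.8%, 58.4 to 78.0). The 16 BC cDNAs had 11 above background on each array (interval 41.3 to 89.0). The 17 mRNA records had 13 on the left (50.1 to 93.2) and 12 on the right (44.0 to 89.7). Of these wide intervals, only that of the mRNA records on the left missed the share of all members, 44.0% on the left and 50.1% on the right. ESTs held by the NCBI database, 692 probes of many sequencing projects, had a left share of 38.6% (34.9 to 42.3) and a right share of 47.0% (43.2 to 50.8). ESTs of the Japanese database, 342 probes, stood at 46.8% (41.4 to 52.2) and 49.7% (44.3 to 55.1). The 49 records of the European database stood at 42.9% (28.8 to 57.8) and 49.0% (34.4 to 63.7). AK cDNAs had median signals of 84.0 (left) and 81.8 (right), against 20.1 and 24.3 for the NCBI ESTs.

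The detected share also varied between single prefixes, though most of their intervals included the share of all members. Among the 17 prefixes with at least 30 members, which cover 973 of the 1209, the detected share ran from 28.6% (BU, 10 of 35) to 64.5% (AK) on the left and from 37.0% (CK, 20 of 54) to 68.8% (AK) on the right. The AK interval lay above the share of all members on both arrays. The only other interval that missed that share was the left one of CK, at 29.6% (17.98 to 43.6). The BY series, the largest with 143 ESTs, had 64 members above background on the left and 63 on the right. Of these, 56 were above background on both. The AV series of 50 ESTs had the highest median of these prefixes, 152 on the left and 134 on the right.

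Bright members were spread unevenly over the series. Of the 54 members above 10000 on both arrays, 12 carried an AV prefix (24.0% of the 50 AV members), 9 an AK prefix (9.68% of 93) and 8 a BB prefix (11.4% of 70). The share over all members was 4.47%, and over all transcript probes 5.77%. The AI series, with 82 ESTs, had 0 such members and 1 above 1000.

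The 10 brightest members had nearly the same signal in left and right kidney. Signals are given with the error that the scanner software estimates for a spot, which for bright spots is close to 10% of the signal. AV131371, a Japanese-database EST, was the brightest at 216219 ± 21622 on the left and 201537 ± 20154 on the right. It ranked 7 among all 59701 transcript probes by mean level. BY652007, an EST of the BY series, gave 182934 ± 18293 on the left and 187965 ± 18797 on the right, at rank 24. The cDNA AK215547 followed at 147103 on the left and 138604 on the right. BB761138, an EST, gave 132190 and 135671, and the cDNA AK216629 gave 135199 and 130776. The left value exceeded the right one in some of these and fell below it in others, always within the software error. AK188366 stood at 107337 on the left and 103473 on the right. AK198651 stood at 101864 and 104466. AV125227 gave 102398 on the left and 101762 on the right. BB123311 gave 98748 and 93821, and BE370611, an NCBI EST, 99301 and 88199. The 10 thus comprised 4 AK cDNAs and 6 ESTs, and ranked from 7 to 503 on the array. Since binding differs from probe to probe, the order of signals is not an order of RNA amounts.

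After scaling each array to the 75th percentile of its own log2 signals, the left minus right differences of these 10 ran from -0.04 (BY652007) to 0.17 (BE370611) on the log2 scale. BE370611 lay past the robust SD of 0.080 that transcript probes of its brightness showed (from the median absolute deviation of those within 0.25 log2), and within its software error of 0.20. AV131371, at 0.10 against a robust SD of 0.060, and AK215547, at 0.08 against 0.075, were likewise past that spread and within the software error. The other 7 lay within both. The signs of such small values were not stable: after cyclic loess normalization AK216629 turned from 0.04 to -0.03, AK188366 from 0.05 to -0.02 and AV125227 from 0.01 to -0.06. Correction by the 18 nearest probes on the array surface turned AK216629 to -0.13, AV125227 to -0.09, BB123311 to -0.04 and BY652007 to 0.14.

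Of the 9 AK cDNAs above 10000 on both arrays, 7 lay among the 13 with the highest accession numbers. The split was made after the values were seen, at the gap between AK172441 and AK180019. Above it lay 13 cDNAs with medians of 14503 (left) and 14764 (right), and 10 of the 13 exceeded 1000 on both arrays. The 35 cDNAs from AK122515 to AK172441 had medians of 92.9 and 88.7, with 7 above 1000 on both arrays. The 45 from AK002715 to AK090059 had medians of 50.4 on each array, with 4 above 1000 on both. Besides the 4 among the 10 brightest, the high-numbered group contained AK210533 (93944 on the left, 88501 on the right), AK217121 (69670 and 64335) and AK182289 (14503 and 14764). Lower in the same group stood AK201409 at 7090 on the left and 6421 on the right, AK217838 at 4518 and 5093, and AK187245 at 1659 and 1664. Its 3 dim members were AK196148 (97.1 and 102), AK201860 (71.3 and 82.7) and AK180019, which at 35.4 on the left and 27.8 on the right was not well above background on the right array. All 12 of the group that were above background on both arrays lay within 1.2-fold between the sides. Of all members and all transcript probes above background on both arrays, 73.2% and 73.3% did. Another 68 probes of the array, named as custom probes, target other AK records, and none exceeded 8925 on the left or 9331 on the right.

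Among all members, 20 pairs of neighbouring numbers lay within 10 of each other, 8 of them consecutive. Both probes were above background on both arrays in 5 pairs, neither on either array in 4, and in 9 pairs 1 probe was above background on both arrays and its partner on neither. Since 511 of the 1209 members were above background on both arrays and 582 on neither, unequal pairs are common among any members, and nothing particular to close numbers is read from this count. EL606404 and EL606405, consecutive NCBI ESTs, gave 6.90 and 414 on the left and 5.49 and 406 on the right. AK033774 and AK033775, consecutive cDNAs, gave 61.4 and 9.30 on the left and 81.8 and 10.3 on the right. CD546535 and CD546536 were both detected, at 88.3 and 291 on the left and 114 and 281 on the right. CA876181 and CA876182 were also both detected, at 63.0 and 56.2 on the left and 78.5 and 38.0 on the right. Whether such pairs derive from the same clone or gene was not tested.

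Left and right signals of the 511 members above background on both arrays ran closely together. Across these probes, which share the same 2 pools and are not replicates, Pearson's r of log2 signals was 0.995 and Spearman's rho 0.979. The corresponding values over all 35367 transcript probes above background on both arrays were 0.994 and 0.988. The median left minus right difference of the members was -0.01 and that of all probes 0.01. Signal was higher on the left for 247 members and on the right for 264. Within 1.2-fold lay 374 members (73.2%), against 73.3% of all probes. The SD of the differences was 0.312 for members and 0.308 for all probes, and the robust SD 0.187 and 0.215. Leaving out AK007918 alone brought the members' SD to 0.280.

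Agreement tightened with brightness in the members as in the array. The 35367 probes were divided into 6 equal ranges of mean level. In the dimmest range, which held 131 members (25.6% of the 511), the robust SD of the differences was 0.320 for members and 0.348 for all probes. It fell to 0.204 and 0.213 in the third range, with 87 members, and to 0.134 and 0.136 in the brightest, with 72 members. In the fifth range, with 51 members, it was 0.121 for members and 0.189 for all probes, and the plain SD there was 0.477 with AK007918 and 0.203 without it. Among the 54 members above 10000 on both arrays, 50 lay within 1.2-fold. The matching share of all transcript probes is not given here, and in the brightest range members and array had nearly the same spread. The differences of the 54 ran from -0.46 (AV038163, 1.37-fold higher on the right) to 0.37 (AV570450, 1.29-fold higher on the left). For scale, 14 transcript probes with replicate spots had SDs of the left minus right difference over their spots between 0.039 and 0.112, a measure of spot noise only.

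Differences of 2-fold or more were seen in 3 of the 511 members, all higher on the left, and in 0 higher on the right. Over all 35367 probes the shares were 1.08% in either direction, 0.537% higher on the left and 0.543% higher on the right, and 3 of 511 is 0.587%. At a limit of 1.5-fold 12 members were higher on the left and 12 on the right, together 4.70% against 5.11% of all probes. The count of 3 became 5 with quantile or cyclic loess normalization, through AU016429 and CN719226 (left 56.7, right 29.7, difference 0.93), and 1 with normexp background correction, whose added offset shrinks differences of dim probes by construction. The 2-fold shares over all probes were then 1.15% (quantile), 1.17% (cyclic loess) and 0.288% (normexp). The 24 members past 1.5-fold had mostly dim signals, and 3 of them, AK007918, BQ550698 and BY031985, exceeded 500 on both arrays.

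AK007918 had the widest gap between the sides among the 511 members above background on both arrays. This cDNA gave 4956 ± 496 on the left and 560 ± 56.3 on the right, so the signals lay apart by much more than their software errors. The scaled log2 difference was 3.14, an 8.82-fold higher signal on the left. It ranked 8 by size among all 35367 differences and first among the 1280 probes within 0.25 log2 of its brightness, whose robust SD was 0.205. The median spot pixel was 5334 (left) and 685 (right), over local backgrounds of 41 and 42, so the raw image shows the same gap. The 6 nearest tested probes on the array surface had a median difference of -0.10 and the 18 nearest 0.02. The difference was 3.12 after subtracting that of the nearest 18, 2.99 with normexp, 3.10 with quantile and 3.09 with cyclic loess normalization. With 1 spot per array and 1 pool per side, differences between mice, pools, labelling and single spots cannot be told apart here.

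The other 4 members named for a higher left signal were dimmer. AA636162, an NCBI EST, gave 114 ± 13.3 on the left and 35.6 ± 6.61 on the right, 3.20-fold higher on the left. Its log2 difference was 1.68, or 0.58 with normexp, and probes of its brightness had a robust SD of 0.324. AV271283 gave 385 ± 39.2 on the left and 162 ± 17.1 on the right. This was 2.38-fold (1.25, or 0.88 with normexp), the smallest difference past 2-fold. Just short of it stood DV650143 at 289 ± 29.7 on the left and 146 ± 15.6 on the right (0.98, or 1.02 with median scaling). AU016429 stood at 94.3 ± 11.6 and 48.6 ± 7.42 (0.95). With normexp DV650143 was at 0.85 and AU016429 at 0.27, the latter below the robust SD of 0.312 at its brightness. Around AU016429 the 6 nearest probes were shifted the same way, with a median of 0.57, and after correction by the nearest 18 it stood at 0.59. What part the array surface had in that value was not tested.

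Of the 511 members above background on both arrays, 0 reached 2-fold on the right. CR522145, a European-database record, came nearest, its left signal of 118 ± 13.7 and right signal of 214 ± 22.1 being 1.82-fold apart (-0.86). CK346856 gave 136 ± 15.3 on the left and 242 ± 24.9 on the right (1.78-fold, -0.83). CA532251 gave 35.7 ± 7.65 and 63.4 ± 8.45 (1.78-fold, -0.83), close to the detection limit on the left. AA671346 gave 52.0 ± 8.83 and 90.6 ± 10.6 (1.75-fold, -0.81), and DV067636 60.3 ± 9.21 and 100.04 ± 11.4 (1.66-fold, -0.73). After correction by the 18 nearest probes, CA532251 stood at -0.83, CK346856 at -0.75, CR522145 and DV067636 at -0.69, and AA671346 at -0.64. With normexp these members shrank to between -0.59 (CK346856) and -0.24 (DV067636). Which member came nearest to 2-fold thus changed with the setting. Their sign under normexp and quantile normalization was part of how they were chosen. The brightest member past 1.5-fold on the right, named after its values were seen, was BQ550698. It gave 3554 on the left and 5438 on the right (1.53-fold, -0.62), against a robust SD of 0.181 at its brightness.

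In terms of the software error, 35 of the 511 members (6.85%) differed between the sides by more than 2 combined errors, against 7.82% of the 35353 single-spot probes above background on both arrays. The combined error had a median of 0.22 log2 over the members.

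Above background on 1 array alone were 21 members on the left (1.74%, against 1.14% of all transcript probes) and 95 on the right (7.86%, against 6.26%). These counts move with the limit: with limits set on the spots named as negatives, the left count lay between 32 and 46 and the right count between 22 and 84. The shares of all transcript probes under those limits are not given here, so the comparison with the array holds for the main call only. Most one-sided signals were faint, with medians of 39.3 for the left set and 35.0 for the right set. A fold was taken against the higher of the dim probe's own signal and the lowest signal called on that array. It makes no allowance for the software error, so it is not a lower limit. This measure reached 2-fold in 3 members on each side, and its share over all transcript probes is not given here. BY430418, a Japanese-database EST, gave a left signal of 137, and its right signal of 5.93 did not pass the call. By this measure it was 5.04-fold higher on the left. AA522006 gave 66.6 and 5.58 (2.44-fold by the same measure) and CA875201 65.7 and 25.3 (2.41-fold). On the right, AA162267 gave 109 against 7.05 on the left, by the same measure 3.29-fold higher on the right. BG081516 gave 69.9 against 32.0 (2.11-fold) and BY613955 72.0 against 34.5 (2.10-fold, which is its measured ratio). With normexp, which adds an offset to every signal, the log2 difference of BY430418 was 1.49 and that of AA162267 was -1.37. AA522006 stood at 1.09, CA875201 at 0.46, BG081516 at -0.32 and BY613955 at -0.42 with normexp. CA875201, BG081516 and BY613955 thus fell short of 2-fold there.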

How the data were processed

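The deposited intensities were read from 1-colour Agilent images with Agilent Feature Extraction 11.0.1.1, per the submitters' processing notes. Per the file headers they are background-subtracted and detrended within the array, and arrays were not brought to a common scale. A second table of intensities that the authors deposited holds the same values in all 62513 rows, to a relative tolerance of 1e-05 (column medians 58.6 and 61.0, linear, not centred). Per the labels' protocols, rRNA-depleted RNA was amplified by random priming. Spots with an outlier flag, controls and named negatives were left out, replicate spots were averaged as log2 values, and the 75th percentile of each array was subtracted. Left minus right differences were taken for probes detected on each array. No p-value was computed. Shares have exact (Clopper-Pearson) intervals, and the number of arrays limits precision.

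Members named are the 10 brightest, the 5 per direction with the largest difference keeping its sign under normexp and quantile normalization, up to 3 per direction seen on 1 side, and those nearest 2-fold. The rule on accessions with several probes found 0. CN719226, BQ550698, BY031985, AV038163, AV570450, the further AK cDNAs and the pairs of close accession numbers were chosen after their values were seen. Members and lists were chosen with earlier results of these data known. Prefix groups follow general knowledge of sequence-database prefixes. Alternatives were other scalings, normexp (offset 50, on the median spot signal and local background, the mean not being used here), position correction, background filters, fold limits and detection limits. Steps were tested on simulated data. Normalization alternatives ran in limma 3.58.1 under R 4.3.3, and all other steps in Python 3.11.15 with scipy 1.17.1, pandas 2.3.3 and numpy 2.4.6.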

Additional observations from a re-analysis of the deposited data

How the results depend on the processing

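The detected counts of 532 (left), 606 (right) and 511 (both) became 827, 901 and 780 with the laxer software call (signal positive and significant), with 47 on the left alone. With limits at the 95th and 99th percentile of the negatives' spots, 42 and 32 were detected on the left alone and 28 and 22 on the right alone. With 18 of the 20 negative probes, chosen after seeing the data, 46 and 36 were detected on the left alone and 75 and 84 on the right alone. The shares of all transcript probes under these other calls and limits are not given here. Members and array are therefore compared under the main call only.

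The 2-fold count of 3 and 0 was 5 and 0 with quantile or cyclic loess normalization and 1 and 0 with normexp. It was 4 and 0 with median scaling, 12 and 12 at 1.5-fold, and 47 and 88 over all 1209 members without a filter. A stricter filter asked for signals at least 4 times the lowest called on each array. With it the count was 2 and 0 of 265 members. Over all transcript probes the called shares were 1.15% with quantile normalization, 1.17% with cyclic loess and 0.288% with normexp. They were 5.11% at 1.5-fold and 8.83% without a filter. The median difference of -0.01 became 0.034 with median scaling, 0.025 with the stricter filter (265 members), -0.034 with position correction and 0.062 without a filter. Without a filter the SD was 0.633, Pearson's r 0.980 and Spearman's rho 0.935. With normexp the median signals were 111.5 and 111.3, which include the offset.

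Of 120 values of the 20 named members above background on both arrays under other settings, 15 moved by more than the robust SD at their brightness, 8 with normexp and 5 with position correction. No paired analysis was possible because each side has 1 array. Settings for accessions with several probes were not run, since 0 exist. Dim signals near the background limit the reading of most members.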
